A study of Mus musculus with 23 samples.

Results

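Transcripts of 10 genes that report on and restrain ERK signaling were measured in flow sorted mouse lung tumor cells driven by BRAF V600E. They comprised the dual specificity phosphatases Dusp4, Dusp5 and Dusp6, the Sprouty genes Spry1, Spry2 and Spry4, the Spred genes Spred1 and Spred2, and the ETS family transcription factors Etv4 and Etv5. The genes were chosen by symbol, and all 10 were found in both deposited tables of normalized counts, 10 of 35455 rows in one and 10 of 35454 in the other.

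BRAF V600E signals through MEK to the kinase ERK, and active ERK switches on a small set of genes that then act back on the pathway. Dusp6 removes phosphate from ERK in the cytoplasm, Dusp4 and Dusp5 do so in the nucleus, and Sprouty and Spred proteins interfere with the RAS and RAF steps upstream. Etv4 and Etv5 are transcription factors that ERK signaling induces, and in the lung epithelium they act below fibroblast growth factor signaling, with Etv5 known to support the alveolar type 2 (AT2) pneumocyte.

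The study asked how PI3Kα H1047R and the transcriptional coactivator PGC1α change BRAF V600E lung tumors, and 23 RNA sequencing libraries were available. All mice carried BrafCAT, a Braf allele that CRE switches to BRAF V600E linked to the red fluorophore tdTomato and that is transcribed from the endogenous Braf promoter, in 1 copy, on a mixed genetic background. The animals were adults of a few months of age. Tumors were initiated with an adenovirus whose CRE is restricted to Sftpc expressing cells, that is to AT2 pneumocytes, and tdTomato+ cells were sorted from dissociated lungs. The first table held 14 libraries. There were 6 from BRAF V600E tumors, with 1, 3 and 2 libraries at 2, 6 and 12 weeks post-initiation (p.i.), and 8 from tumors of mice with 1 copy of a CRE-activated Pik3ca allele encoding PI3Kα H1047R, with 2, 4 and 2 libraries at these weeks. The second table held 9 libraries at 12 weeks p.i., all with BRAF V600E. Of these, 5 came from mice with 1 floxed copy of Ppargc1a (PGC1α Het) and 4 from mice with both copies floxed (PGC1α Null). Mice analyzed at 2 and 6 weeks p.i. received more virus than those analyzed at 12 weeks, so that week and virus dose cannot be told apart in comparisons with 12 weeks.

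Normalized counts of a library summed to 16430000 to 20290000 in the first table, with 19803 to 21817 genes above 0, and to 7120000 to 9160000 in the second, with 23661 to 26378. The tables were normalized separately, so levels were compared only within a table. Several libraries of the first table stood apart. Summed normalized counts of 10 endothelial markers were 60515 and 61615 in the 2 week BRAF V600E/PI3Kα H1047R pair, 85973 in replicate 1 at 6 weeks and 43367 in replicate 3 of BRAF V600E at 6 weeks, and 5854 to 32165 in all other libraries. The sum of 8 fibroblast markers was likewise 49941 and 52596 in that pair at 2 weeks and 36454 in replicate 1 at 6 weeks, against 3704 to 22677 elsewhere. The sum of 10 AT2 markers was 158251 and 76216 in the pair at 2 weeks, 300696 in replicate 1 at 6 weeks and at least 528750 in every BRAF V600E library, with no endothelial, fibroblast or AT2 marker at 0. Replicate 1 of BRAF V600E/PI3Kα H1047R at 12 weeks had a sum of 7274 over 8 macrophage markers, against 912 to 3413 in all other libraries. The 12 week BRAF V600E/PI3Kα H1047R pair went against their sex labels. Kdm5d, which lies on the Y chromosome, was at 502 normalized counts in replicate 1, given as male, and at 4728 in replicate 2, given as female. Results that rest on the 2 week or these 12 week libraries are given with and without them where that changes a call or direction. Braf itself was present in every library of the first table, at 2131 to 4332 normalized counts.

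Among the 10 genes, Dusp6, Spred1 and Etv5 had the highest levels and Dusp5 and Etv4 the lowest, in tumors of both genotypes. Per kilobase of merged exons, BRAF V600E tumors had 1282 ± 567 normalized counts (SD, n = 6) of Dusp6, 1227 ± 315 of Spred1, 834 ± 343 of Etv5 and 700 ± 236 of Spry2. Spry1 followed at 428 ± 40.3, Spred2 at 329 ± 84.5, Spry4 at 277 ± 134 and Dusp4 at 183 ± 77.2, and then came Dusp5 at 74.9 ± 31.3 and Etv4 at 21.3 ± 11.1. Dusp6 and Spred1, Etv5 and Spry2, and Spred2 and Spry4 were neighbors whose levels per kilobase differed by less than their spread, and these differences were not tested. In BRAF V600E/PI3Kα H1047R tumors the order was Spred1 at 971 ± 385 normalized counts per kilobase (SD, n = 8), Dusp6 at 747 ± 384, Etv5 at 706 ± 305 and Spry2 at 490 ± 254, again within the spread of their neighbors. Dusp5 at 33.2 ± 21.7 and Etv4 at 24.8 ± 14.8 were again the lowest.

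Dusp6, Spry2 and Spred1 varied together over the libraries, as described below, and the 250 bases before the annotated start of each are therefore shown here. They are RefSeq sequences of GRCm38.p6, written from 5′ to 3′ on the strand of the gene, and capitals mark each GGAA, the core that ETS factors bind, on either strand (TTCC where it lies on the other strand).

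Dusp6, chr10:99262981-99263230, plus strand: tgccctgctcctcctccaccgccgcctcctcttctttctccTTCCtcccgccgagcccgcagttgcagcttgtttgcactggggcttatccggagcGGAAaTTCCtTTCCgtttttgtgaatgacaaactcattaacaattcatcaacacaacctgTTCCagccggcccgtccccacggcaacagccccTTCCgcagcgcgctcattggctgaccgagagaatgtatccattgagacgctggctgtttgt

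Spry2, chr14:105896820-105897069, minus strand: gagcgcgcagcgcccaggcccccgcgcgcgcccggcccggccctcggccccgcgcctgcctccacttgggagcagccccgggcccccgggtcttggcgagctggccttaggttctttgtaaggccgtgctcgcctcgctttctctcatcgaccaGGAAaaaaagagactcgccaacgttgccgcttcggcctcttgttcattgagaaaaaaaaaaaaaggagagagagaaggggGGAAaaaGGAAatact

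Spred1, chr2:117120821-117121070, plus strand: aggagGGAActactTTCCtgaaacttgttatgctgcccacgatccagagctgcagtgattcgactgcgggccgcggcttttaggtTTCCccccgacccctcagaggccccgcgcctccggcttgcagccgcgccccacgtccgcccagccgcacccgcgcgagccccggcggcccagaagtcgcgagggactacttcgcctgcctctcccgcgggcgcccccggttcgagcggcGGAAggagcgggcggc

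The Dusp6 window held 6 matches to GGAA, the Spred1 window 4 and the Spry2 window 3. GGAA is a common word that occurred in 93.4% of the 32851 promoter windows of this length that were searched, with a median of 3 matches. As many matches as in Dusp6 were found in 8.69% of them, as many as in Spred1 in 33.4% and as many as in Spry2 in 54.7%. Of the 10 genes, 7 had windows among those searched, 8 windows in all since Etv5 had a pair of starts, and the counts in the others were 1 for Spry1, 3 for Dusp5, 7 for Spred2 and 0 and 4 for Etv5. Dusp4, Spry4 and Etv4 had no window among those searched. The longer ETS word CCGGAA, which occurred in 12% of all windows and contains the core, was in none of the 8. The words TGAATGAA and TGAATGGA, which are among those bound by the repressor CIC, occurred in 1.08% and 1.01% of all windows. TGANTCA, bound by AP-1, occurred in 6.75% and TGACGTCA, bound by CREB, in 1.55%. None of the 4 was in the 8 windows on either strand. Other forms of the CIC word were not searched, so whether these windows lack CIC sites was not tested. The windows were rich in G and C, with 56.4% in Dusp6, 62.4% in Spry2 and 70.8% in Spred1 against a median of 52.4% over all windows.

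To ask whether PI3Kα H1047R altered the output of the pathway, the 8 BRAF V600E/PI3Kα H1047R libraries were first compared with the 6 BRAF V600E libraries over all weeks. All 10 genes had fold changes below 0 on the log2(normalized count + 1) scale, from a log2 fold change of -1.26 in Dusp5 to -0.01 in Spred2, with a median of -0.32 against 0.02 over all 17558 genes tested. None passed an adjusted p of 0.05 in limma (adjusted p 0.595 to 0.998), where 0.0228% of all genes did. At an unadjusted p under 0.05, 1 of the 10 genes, Dusp5, was lower, where 6.83% of all genes passed and 3.38% were lower. This count was 2, Dusp5 and Dusp6, with week as a factor (unadjusted p 0.0223 and 0.0474) and with the replicate number as a block (0.0142 and 0.0456), 0 with sex as a factor (0.0664 for Dusp5) and without the 2 week libraries, and 4 without both BRAF V600E/PI3Kα H1047R libraries at 12 weeks p.i., none with a call. Sex and week were both unequally spread over the genotypes. With quantile normalization all 10 were likewise below 0. With sex as a factor, Spry4, Spred2 and Etv5 had fold changes above 0, and Spred2 also had one without the 2 week libraries or without the 12 week pair. All fits with sex as a factor in this table rest on the sex labels, which 2 libraries at 12 weeks p.i. went against.

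Dusp5, the nuclear phosphatase specific for ERK, had the lowest fold change with PI3Kα H1047R. In BRAF V600E tumors it was at 192 normalized counts at 2 weeks p.i., 225, 264 and 141 at 6 weeks and 53.0 and 236 at 12 weeks. In BRAF V600E/PI3Kα H1047R tumors it was at 29.5 and 46.3 at 2 weeks, 51.3, 93.3, 33.4 and 81.6 at 6 weeks and 172 and 148 at 12 weeks. The genotypes did not overlap at 2 and 6 weeks but did at 12 weeks, where 1 BRAF V600E library was the lowest of all 4. Means were 185 ± 77.3 (SD, n = 6) and 82.0 ± 53.5 normalized counts (SD, n = 8), 2.40-fold lower with PI3Kα H1047R on the log2 scale (log2 fold change -1.26, SE 0.46, limma adjusted p 0.595). The two-sided exact permutation test over these libraries gave p = 0.0280, the smallest p it allows being 0.000333. This test ignored week. Its p-values here and below were not adjusted over the 10 genes, and no share over all genes was computed for them. Without the 3 libraries at 2 weeks p.i. the log2 fold change of Dusp5 was -0.93 (limma adjusted p 0.987).

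Dusp6, the cytoplasmic ERK phosphatase, was at 3187 normalized counts in the BRAF V600E library at 2 weeks p.i., at 5682, 3953 and 1491 at 6 weeks and at 3413 and 6370 at 12 weeks. With PI3Kα H1047R it was at 942 and 925 at 2 weeks, at 1295, 2979, 2596 and 3207 at 6 weeks and at 4302 and 2477 at 12 weeks. Both genotypes overlapped at 6 and 12 weeks, and 3 of 8 BRAF V600E/PI3Kα H1047R libraries lay below every BRAF V600E library. The means were 4016 ± 1774 (SD, n = 6) and 2340 ± 1204 normalized counts (SD, n = 8), with a log2 fold change of -0.84 (SE 0.40, limma adjusted p 0.730, exact permutation p = 0.0799). Dusp4, which acts on ERK and related kinases in the nucleus, ranged from 303 to 898 normalized counts in BRAF V600E tumors and from 311 to 620 with PI3Kα H1047R, and its log2 fold change was -0.17 (SE 0.23, limma adjusted p 0.899).

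**Figure D1:**
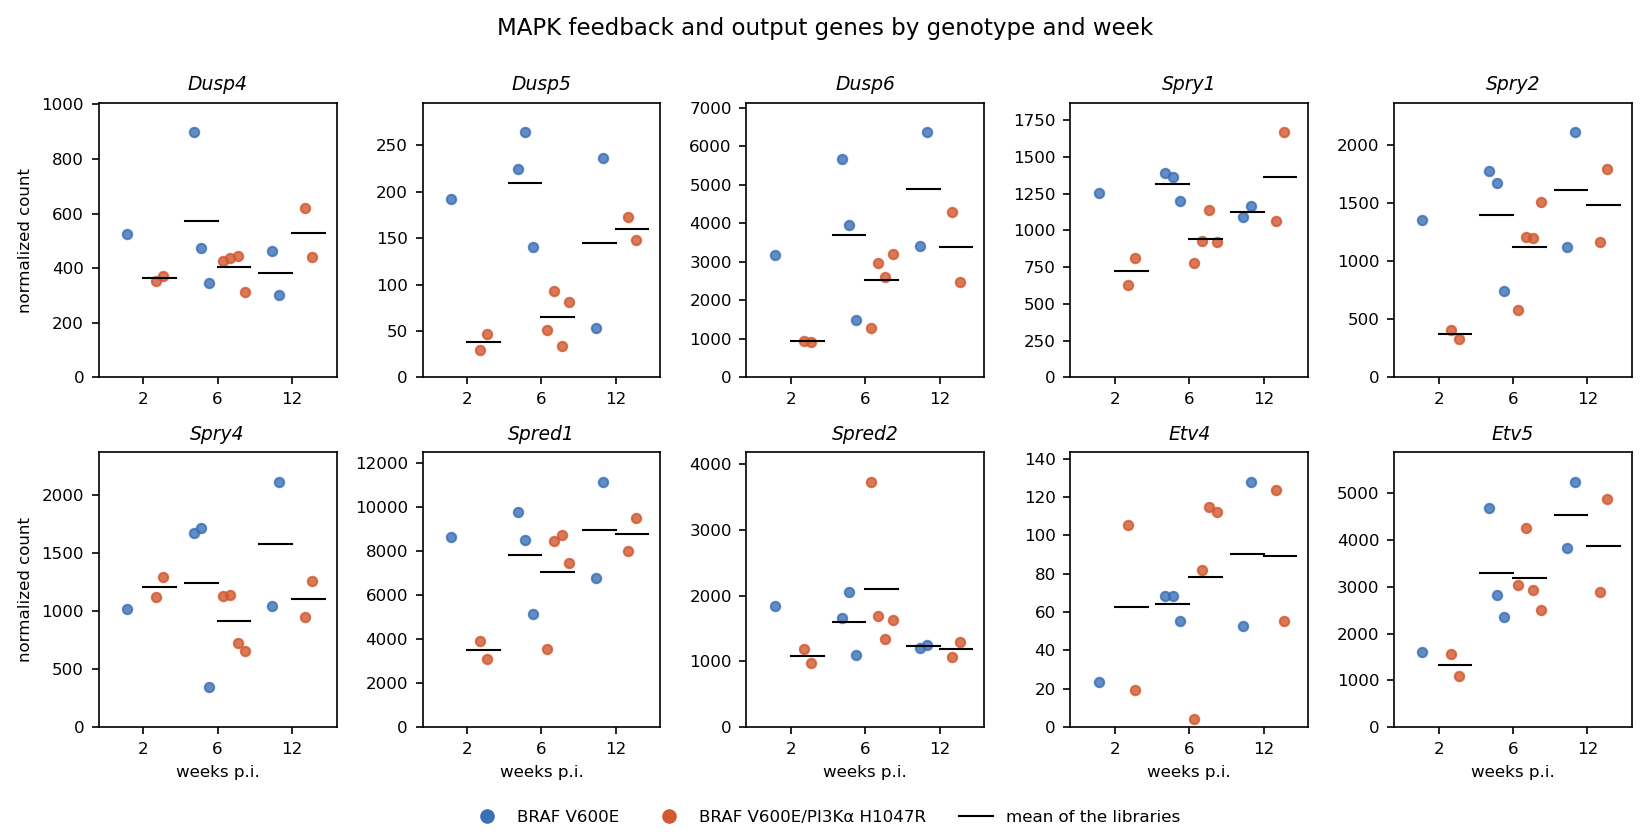
Normalized counts (linear axes from 0) of the 10 genes in the 14 libraries of BRAF V600E (blue) and BRAF V600E/PI3Kα H1047R (orange) tumors at 2, 6 and 12 weeks p.i., each point being 1 library and each line the mean of a group of 2 or more. The points of the genotypes lie apart at 6 weeks in Dusp5 and Spry1 and overlap in the other 8 genes, and Etv5 at 2 weeks (1087 to 1599) lies below Etv5 at 12 weeks (2889 to 5245).

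Among the Sprouty genes, whose products dampen receptor signaling to RAS and RAF, Spry1 was even across BRAF V600E tumors. It was at 1252 normalized counts at 2 weeks p.i., 1391, 1361 and 1197 at 6 weeks and 1088 and 1164 at 12 weeks, a mean of 1242 ± 117 (SD, n = 6). With PI3Kα H1047R it was at 628 and 812 at 2 weeks, 781, 928, 1141 and 920 at 6 weeks and 1062 and 1667 at 12 weeks, a mean of 992 ± 317 (SD, n = 8). Of these 8 libraries, 6 lay below every BRAF V600E library and 1, at 12 weeks, lay above all of them. The log2 fold change of Spry1 was -0.38 (SE 0.19, limma adjusted p 0.736) and its exact permutation p was 0.0573.

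Spry2 and Spry4 were more variable. Spry2 was at 1349 normalized counts at 2 weeks p.i., 1777, 1672 and 740 at 6 weeks and 1120 and 2107 at 12 weeks in BRAF V600E tumors. With PI3Kα H1047R it was at 405 and 334 at 2 weeks, 578, 1202, 1202 and 1508 at 6 weeks and 1166 and 1791 at 12 weeks. The 2 week pair and replicate 1 at 6 weeks lay below every BRAF V600E library and the other 5 were among them (log2 fold change -0.65, SE 0.38, limma adjusted p 0.750). Spry4 ranged from 343 to 2114 normalized counts in BRAF V600E tumors and from 653 to 1292 with PI3Kα H1047R, within the range of the former (log2 fold change -0.18, SE 0.34, limma adjusted p 0.929).

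Spred1, a partner of the RAS inhibitor neurofibromin, had 8635 normalized counts at 2 weeks p.i., 9772, 8512 and 5115 at 6 weeks and 6769 and 11135 at 12 weeks in BRAF V600E tumors. In BRAF V600E/PI3Kα H1047R tumors it had 3930 and 3097 at 2 weeks, 3541, 8432, 8743 and 7431 at 6 weeks and 8019 and 9501 at 12 weeks. As for Spry2, the libraries below every BRAF V600E library were the 2 week pair and replicate 1 at 6 weeks (log2 fold change -0.42, SE 0.29, limma adjusted p 0.781). These 3 libraries were also the 3 with the highest endothelial marker sums, and the part of other cells in their values was not tested. In bulk libraries, fewer tumor cells and less RNA of a gene per cell cannot be told apart. Spred2, the related gene, ranged from 1093 to 2053 normalized counts in BRAF V600E tumors and from 971 to 3731 with PI3Kα H1047R, with a log2 fold change of -0.01 (SE 0.27, limma adjusted p 0.998).

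Of the ETS factors, Etv5 was at 1599 normalized counts at 2 weeks p.i., 4684, 2817 and 2360 at 6 weeks and 3824 and 5245 at 12 weeks in BRAF V600E tumors. With PI3Kα H1047R it was at 1572 and 1087 at 2 weeks, 3045, 4250, 2932 and 2514 at 6 weeks and 2889 and 4880 at 12 weeks. The genotypes overlapped at 6 and at 12 weeks (log2 fold change -0.26, SE 0.34, limma adjusted p 0.889). Etv4 was low, from 23.7 to 128 normalized counts in BRAF V600E tumors and from 3.99 to 124 with PI3Kα H1047R, and its fold change was imprecise (log2 fold change -0.13, SE 0.67, 95% interval -1.55 to 1.29, limma adjusted p 0.977). Over these 14 libraries, genotype groups that did not overlap were found for 0 of the 10 genes and for 0.211% of all genes.

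**Figure D2:**
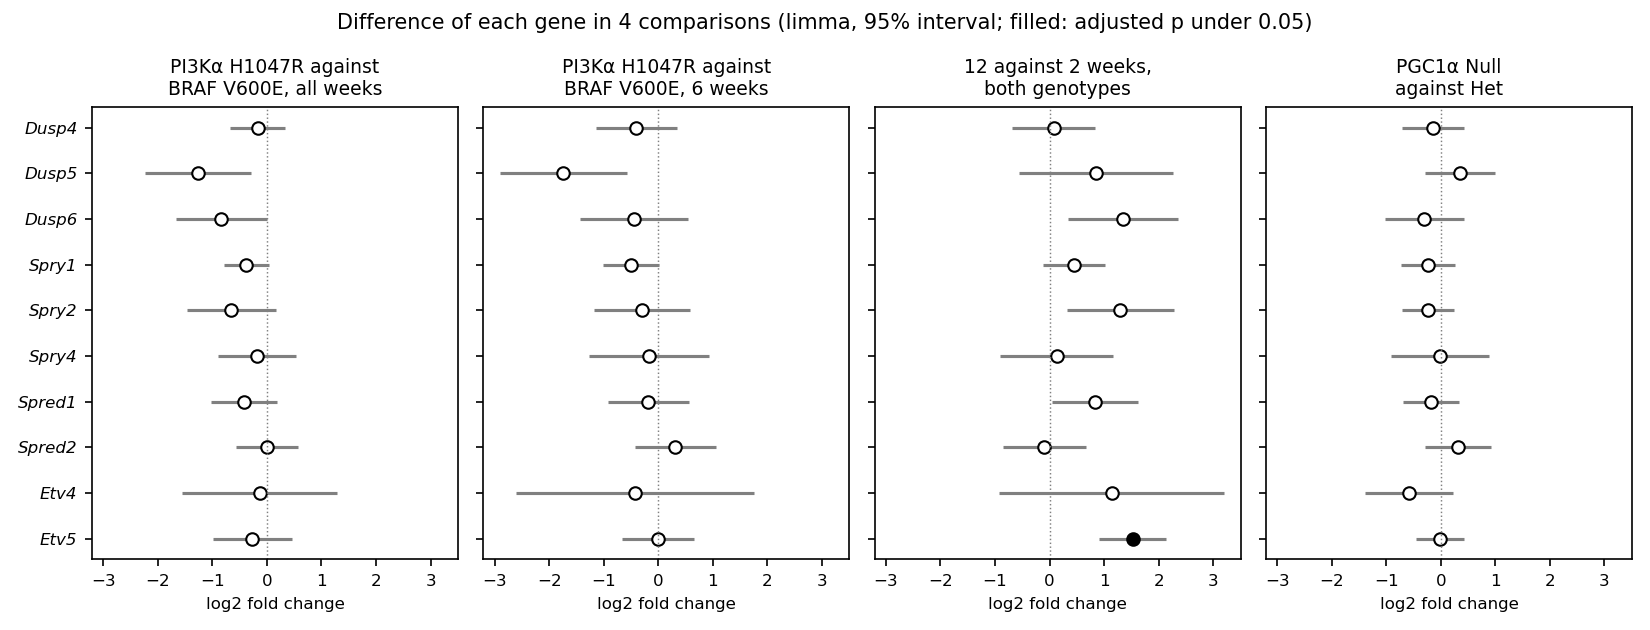
Log2 fold changes of the 10 genes with 95% intervals from limma, for PI3Kα H1047R against BRAF V600E over all weeks and at 6 weeks p.i., for 12 against 2 weeks p.i., and for PGC1α Null against PGC1α Het. All 10 points lie below 0 over all weeks, from -1.26 to -0.01, and for 12 against 2 weeks 9 of 10 (all 10 with quantile normalization) lie above 0, where Etv5 at 1.53, the filled point, passed the adjusted threshold.

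Within weeks, fold changes with PI3Kα H1047R had a median of -0.80 on the log2 scale at 2 weeks p.i., -0.35 at 6 weeks and -0.03 at 12 weeks over the 10 genes. At 2 weeks, where a single BRAF V600E library from a female was set against 2 libraries from males, 4 genes had an unadjusted p under 0.05, and all 4 were lower with PI3Kα H1047R. They were Dusp5 (log2 fold change -2.34, SE 0.86), Spry2 (-1.87, SE 0.65), Dusp6 (-1.77, SE 0.73) and Spred1 (-1.31, SE 0.54). Their limma adjusted p lay between 0.239 and 0.328, none of the 10 genes passed, and the background was 0.0171% at the adjusted threshold and 13.5% at the unadjusted one, 6.57% lower. The single library was assumed to vary as the other groups did, and sex and genotype cannot be told apart at this week. Leaving out 1 library gave log2 fold changes of -2.66 to -2.03 for Dusp5, -2.01 to -1.73 for Spry2, -1.78 to -1.76 for Dusp6 and -1.48 to -1.14 for Spred1. Without either library of the pair, single libraries are compared, so no count of genes was read from those fits. With sex as a factor over all 14 libraries, none of the 4 had an unadjusted p under 0.05 (limma, 0.0520 to 0.0810), and the log2 fold changes of Etv4 (0.92) and Etv5 (-0.29) turned to -0.40 and 0.26. The endothelial marker sum of the BRAF V600E library at 2 weeks was 7578, against 60515 and 61615 in the pair it was compared with. The part of this difference in the fold changes was not tested.

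At 6 weeks p.i., the week with the most libraries, all 4 BRAF V600E/PI3Kα H1047R libraries lay below all 3 BRAF V600E libraries in Dusp5 and in Spry1. Groups that did not overlap were found for 5.22% of all genes at this week, and with PI3Kα H1047R lower for 2.6%. Dusp5 was 3.33-fold lower (log2 fold change -1.74, SE 0.54, unadjusted p 0.00688, limma adjusted p 0.930), and Spry1 had a log2 fold change of -0.49 (SE 0.24, limma adjusted p 1). The exact permutation test gave p = 0.0571 for each, where the 35 possible splits allow no p below 0.0286. None of the 10 genes passed the adjusted threshold (0.0228% of all genes), and Dusp5 alone had an unadjusted p under 0.05 (4.24% of all genes, 1.99% lower). Leaving out 1 library gave 1 to 3 such genes, always with Dusp5. The count of 3, with Dusp6 and Spry4, was without BRAF V600E replicate 3 at 6 weeks. Fold changes of 9 of the 10 genes were below 0, Spred2 at 0.31 being the exception, and of 8 with quantile normalization or the replicate block, where Etv5 turned. With sex as a factor 7 were below 0, Spry4 (0.017) and Etv5 (0.083) being above it. It was 6 without BRAF V600E replicate 1, where Spry4, Spred1 and Etv5 turned, and 7 without BRAF V600E/PI3Kα H1047R replicate 1, where Spred2, Spred1, Etv4 and Etv5 did.

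At 12 weeks p.i. 5 genes had fold changes above 0 and 5 below (4 and 6 with quantile normalization, where Etv4 turned, and 8 and 2 with sex as a factor, where Spry2, Spry4, Spred2, Etv4 and Etv5 turned). Leaving out 1 of the 4 libraries of this week gave 2 to 7 genes above 0. None had an unadjusted p under 0.05 (3.76% of all genes; 0.0114% at the adjusted threshold). The lowest log2 fold change was -0.51, in Dusp6. Dusp5 was at 0.51, a value that rested on the BRAF V600E pair at 53.0 and 236 normalized counts, since it was -0.56 without replicate 1 and 1.58 without replicate 2 (unadjusted p 0.444 and 0.0486, limma adjusted p 1 for both). The library that remained was then assumed to vary as the other groups did. Whether the genotype difference itself changed between weeks was tested as an interaction. The difference in Dusp5 was higher by 2.25 on the log2 scale at 12 than at 6 weeks (unadjusted p 0.0254, limma adjusted p 0.9999), and by 2.85 at 12 than at 2 weeks (unadjusted p 0.0240, adjusted p 0.482). Without BRAF V600E replicate 1 at 12 weeks these were 1.18 and 1.79 (unadjusted p 0.183 and 0.0998, limma adjusted p 1 and 0.795), and without replicate 2 they were 3.31 and 3.92 (unadjusted p 0.00218 and 0.00239, limma adjusted p 0.9998 and 0.269). With all libraries Dusp5 was the 1 gene of 10 in each of these tests with an unadjusted p under 0.05, where 2.87% and 9.1% of all genes passed, and for 6 against 2 weeks it was 0 of 10 and 8.95%. None of the 10 passed the adjusted threshold in any of the 3 tests, and neither did any other gene (0%). In the 12 week BRAF V600E/PI3Kα H1047R pair, replicate 1 is the one with the macrophage sum of 7274, whose part in these values was not tested.

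To follow the genes over tumor growth, weeks were compared with genotype as a factor. Between 2 and 12 weeks p.i., Etv5 rose 2.89-fold (log2 fold change 1.53, SE 0.29, limma adjusted p 0.0378), and it was the 1 gene of the 10 that passed the adjusted threshold, where 0.786% of all genes did. All 4 libraries at 12 weeks, at 2889 to 5245 normalized counts, lay above all 3 at 2 weeks, at 1087 to 1599. Such separation was found for 1 of the 10 genes and for 13.2% of all genes, 6.5% with 12 weeks higher. Sums of 8 alveolar type 1 markers separated the same libraries, at 104399 to 155894 at 2 weeks and 51221 to 88440 at 12 weeks, and the AT2 sums of the BRAF V600E/PI3Kα H1047R pair at 2 weeks, 158251 and 76216, were the lowest of all 14 libraries. The part of cell content in the change of Etv5 was not tested. The log2 fold change of Etv5 was 1.48 within BRAF V600E tumors (adjusted p 0.466) and 1.52 within BRAF V600E/PI3Kα H1047R tumors (adjusted p 0.0830). At 6 weeks Etv5 was intermediate to high, with a log2 fold change of 1.15 against 2 weeks (SE 0.26, limma adjusted p 0.133).

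The call for Etv5 was lost when any 1 of 7 libraries was left out, with log2 fold changes from 1.37 to 1.71 and limma adjusted p from 0.0244 to 0.108 over all 14 such fits. These were BRAF V600E replicate 2 at 6 weeks and replicate 2 at 12 weeks, and BRAF V600E/PI3Kα H1047R replicate 1 and replicate 2 at 2 weeks, replicate 3 at 6 weeks and replicate 1 and replicate 2 at 12 weeks. Without the 12 week BRAF V600E/PI3Kα H1047R pair, whose sex labels are in doubt, it was 1.62 (adjusted p 0.363), with sex as a factor 1.35 (adjusted p 0.0497), and with the replicate number as a block 1.53 (adjusted p 0.119). Without a filter on low genes the call was lost as well (adjusted p 0.0543).

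Dusp6, Spry2 and Spred1 had fold changes of 1.35 (SE 0.47), 1.30 (SE 0.45) and 0.83 (SE 0.37) on the log2 scale between 2 and 12 weeks p.i., with limma adjusted p of 0.159, 0.161 and 0.270. With Etv5 these were the 4 genes of the 10 with an unadjusted p under 0.05, all higher, where 17.1% of all genes passed and 8.64% were higher. The count was 2 to 5 when 1 library was left out, and 1, Etv5, without both BRAF V600E/PI3Kα H1047R libraries at 12 weeks. The median log2 fold change of the 10 genes was 0.84 against 0.02 over all genes, and Spred2 at -0.10 was the 1 gene below 0, or above it with quantile normalization or without the BRAF V600E library at 2 weeks, where Spry4 turned, as it did with sex as a factor. Without both BRAF V600E/PI3Kα H1047R libraries at 12 weeks p.i. 4 of the 10 were below 0, as Dusp4, Dusp5 and Spry1 turned. The weeks overlapped in Dusp6, Spry2 and Spred1, because the BRAF V600E library at 2 weeks was already at 3187, 1349 and 8635 normalized counts. Without that library Spry2 also passed the adjusted threshold (log2 fold change 1.91, limma adjusted p 0.0494).

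Within BRAF V600E/PI3Kα H1047R tumors, 6 of the 10 genes were higher at 12 than at 2 weeks p.i. at an unadjusted p under 0.05, where 19.1% of all genes passed and 9.26% were higher, and none passed the adjusted threshold (0.57% of all genes). Log2 fold changes were 2.08 for Dusp5 (SE 0.70), 1.97 for Spry2 (SE 0.53), 1.81 for Dusp6 (SE 0.60), 1.52 for Etv5 (SE 0.40), 1.32 for Spred1 (SE 0.44) and 0.90 for Spry1 (SE 0.31), with limma adjusted p from 0.0830 to 0.148. Within BRAF V600E tumors, where 2 libraries at 12 weeks were set against a single one at 2 weeks that was assumed to vary as the other groups did, Etv5 alone had an unadjusted p under 0.05 (7.43% of all genes, 4.03% higher, and 0% at the adjusted threshold). The counts of the genotypes therefore rest on unequal numbers of libraries and were not compared. The 2 week pair of BRAF V600E/PI3Kα H1047R libraries is the pair with high endothelial and low AT2 marker sums, whose part in these values was not tested.

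Between 2 and 6 weeks p.i. none of the 10 genes passed the adjusted threshold (0.0513% of all genes), and Etv5 and Spry2 had an unadjusted p under 0.05 (11.9% of all genes, 6.58% higher). The unadjusted count was 1 to 5 when 1 library was left out, always with Etv5, and 1, Etv5, with sex as a factor. The log2 fold change of Spry2 was 0.97 (SE 0.41, limma adjusted p 0.369). Within BRAF V600E/PI3Kα H1047R tumors it was 1.52 (SE 0.46, limma adjusted p 0.207), and 5 of the 10 genes, Dusp6, Spry2, Spred1, Spred2 and Etv5, were higher at 6 than at 2 weeks at an unadjusted p under 0.05, where 13.4% of all genes passed and 7.72% were higher, none of the 10 with a call (0.159% of all genes). Within BRAF V600E tumors, with the single library at 2 weeks, Spry2 was at a log2 fold change of -0.05 (SE 0.61), and 0 of the 10 passed at the unadjusted (7.28% of all genes) or the adjusted threshold (0%). Between 6 and 12 weeks none of the 10 passed at the adjusted (0% of all genes) or the unadjusted threshold (5.31%), and 8 of 10 fold changes were above 0, with a median log2 fold change of 0.32. Spred2 had an unadjusted p under 0.05 with sex as a factor (log2 fold change -0.65, unadjusted p 0.0113) and with the replicate number as a block (-0.84, unadjusted p 0.0163), without a call in limma. Without both BRAF V600E/PI3Kα H1047R libraries at 12 weeks p.i. 5 of 10 fold changes were above 0, Dusp5, Spry1 and Spry2 having turned.

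The genes did not vary as 1 unit from library to library. Over the 14 libraries, 40 of 45 pairs had a positive Pearson correlation of log2(normalized count + 1), from -0.59 to 0.96 with a median of 0.33. After Benjamini-Hochberg adjustment over the pairs 13 of the 45 passed, a count for which no share over pairs of all genes was computed. The closest were Spry2 and Spred1 (r = 0.96, rho = 0.91, permutation p = 1e-05 for both, the smallest the 100000 permutations can give, adjusted p 0.00045 for r). Dusp6 followed with Spry2 (r = 0.92, permutation p = 2e-05, adjusted p 0.00045, rho = 0.71, permutation p = 0.00534) and with Spred1 (r = 0.91, permutation p = 6e-05, adjusted p 0.0009, rho = 0.68, permutation p = 0.00915). All 3 genes were low in the same 3 BRAF V600E/PI3Kα H1047R libraries named above and in replicate 3 of BRAF V600E at 6 weeks, and high in replicate 2 of BRAF V600E at 12 weeks. The 4 libraries in which they were low were those with the 4 highest endothelial sums, 43367 to 85973, and the 4 lowest AT2 sums, 76216 to 528750, and the part of cell content in these relations was not tested.

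These 3 relations held without the 2 libraries farthest from the median, with r of 0.93, 0.84 and 0.83. Within BRAF V600E tumors r was 0.98, 0.96 and 0.94 (n = 6, exact permutation p adjusted over 45 pairs 0.0625, 0.0625 and 0.075). Within BRAF V600E/PI3Kα H1047R tumors it was 0.95, 0.90 and 0.90 (n = 8, adjusted exact permutation p 0.110 for each), and 0 of 45 pairs passed in either genotype alone. Spry4 was like Dusp6, Spry2 and Spred1 within BRAF V600E tumors, with r of 0.97, 0.97 and 0.93 (n = 6, adjusted exact permutation p 0.0625, 0.0625 and 0.0833). Within BRAF V600E/PI3Kα H1047R tumors its r was -0.54, -0.47 and -0.44 (n = 8), a difference that was not tested. Over all 14 libraries its r was 0.37, 0.26 and 0.26, and without the 2 farthest libraries 0.64, 0.60 and -0.03. The r of Etv5 fell from 0.69 to 0.38 with Dusp6 and from 0.74 to 0.41 with Spry2 without the 2 farthest libraries, whereas with Spred1 it was 0.69 and 0.67. Spry1 with Dusp6 likewise fell from 0.64 to 0.34.

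**Figure D3:**
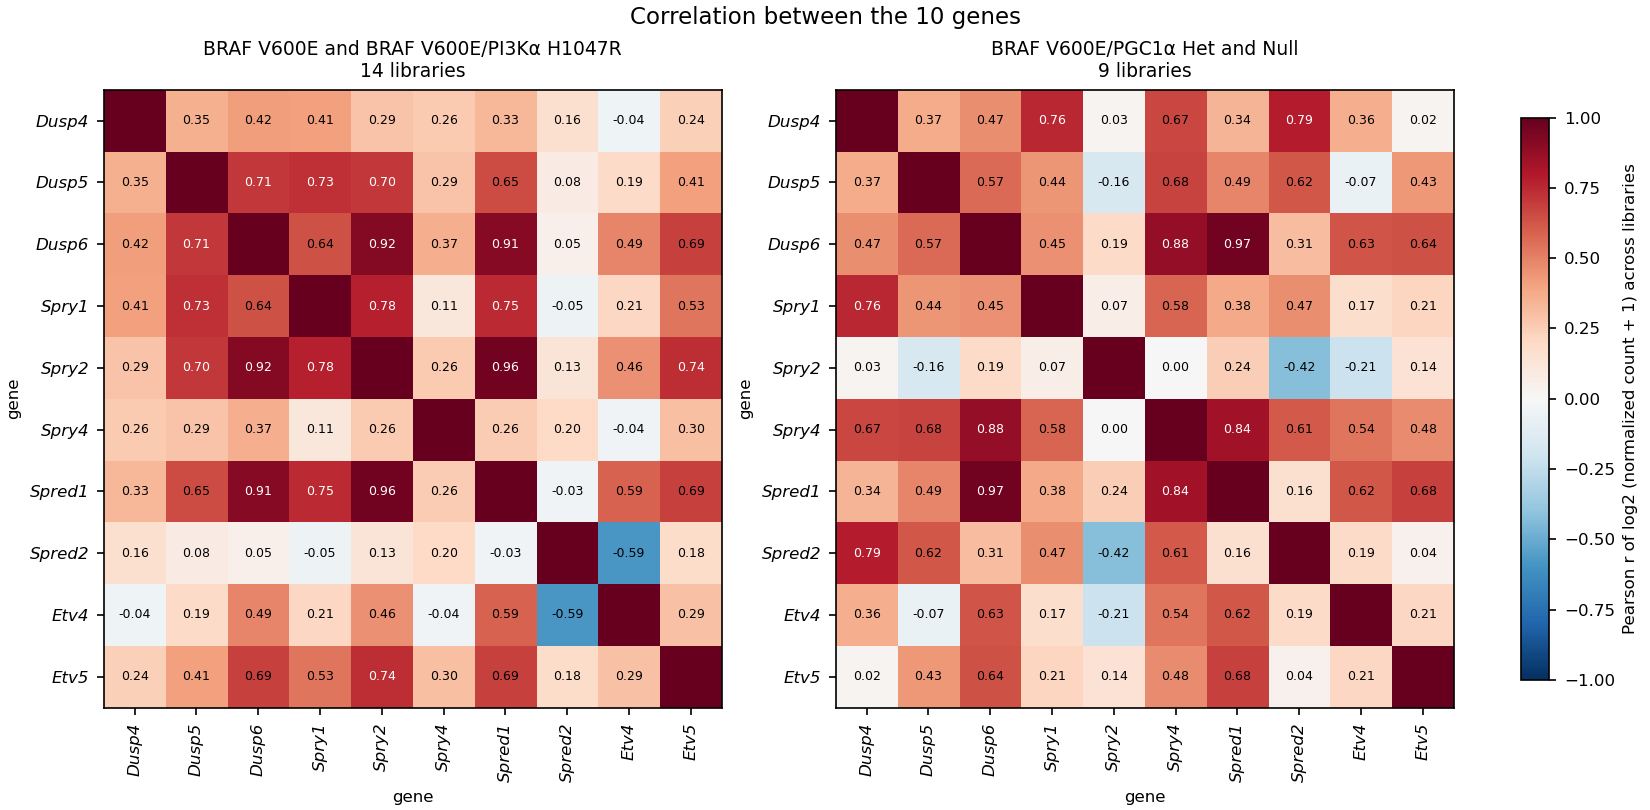
Pearson correlations of log2(normalized count + 1) between the 10 genes, over the 14 libraries of the first table and over the 9 libraries of the PGC1α table, colored from -1 to 1. Dusp6, Spry2 and Spred1 form a block of 0.91 to 0.96 in the first table, and in the second Dusp6 stays close to Spred1 (0.97) but not to Spry2 (0.19).

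**Figure D4:**
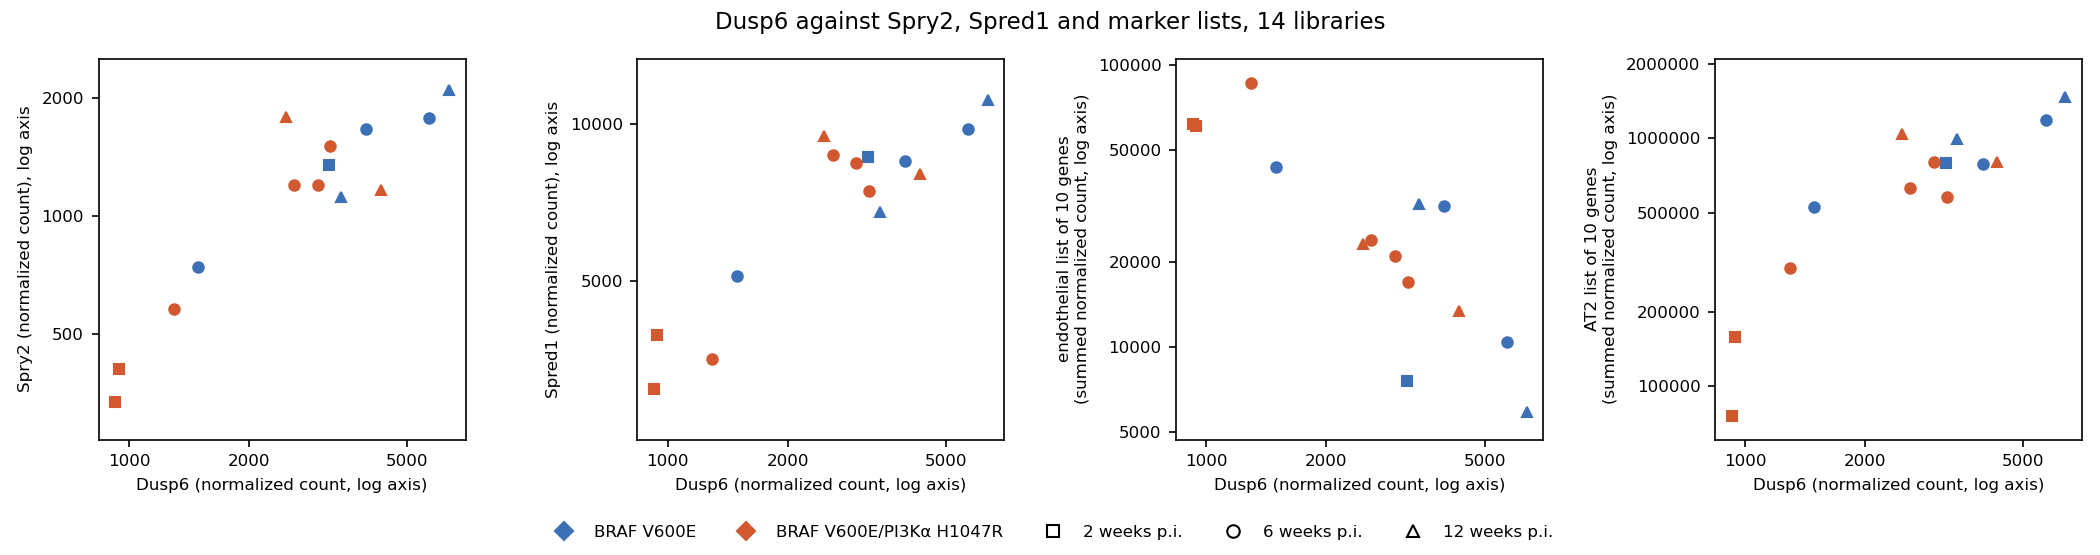
Normalized counts of Spry2 and of Spred1, and summed normalized counts of the 10 endothelial and the 10 AT2 markers, against normalized counts of Dusp6 in each of the 14 libraries (log axes; color gives genotype and shape gives week). Spry2 and Spred1 increase with Dusp6 in both genotypes, and the 4 libraries with Dusp6 at 925 to 1491 have the highest endothelial sums (43367 to 85973) and the lowest AT2 sums (76216 to 528750).

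Outside the 10 genes, those whose log2(normalized count + 1) was most like that of Dusp6 over the 14 libraries were Slc38a2 (r = 0.97), an amino acid transporter, Epha2 (r = 0.96), an ephrin receptor, Tet2 (r = 0.95), a DNA demethylase, Lrrc8c (r = 0.95), a subunit of volume regulated anion channels, and Exosc7 (r = 0.95), a subunit of the RNA exosome. In the same ranking of 11545 genes with a mean of at least 100 normalized counts, Spry2 stood at rank 32 and Spred1 at rank 50, Dusp5 at 916, Etv5 at 1011 and Spry1 at 1267, and Spred2 at 5180. Dusp5, Etv5 and Spry1 had passed with Dusp6 among the 45 pairs, yet many other genes ranked above them. The likeness is a description, as libraries share depth and cell content.

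Lists of other pathway genes, 3 in all, were read beside these. Of 20 genes of the ERK cascade, from the adaptors above RAS to the RSK kinases, 0 passed for PI3Kα H1047R against BRAF V600E over all weeks at either threshold, with a median log2 fold change of 0.06. Of 19 other negative regulators tested, with a median of -0.16, 0 passed the adjusted threshold and 1 was lower at an unadjusted p under 0.05, the RAS GTPase activating gene Rasa1 (log2 fold change -0.39, SE 0.13, unadjusted p 0.00826, limma adjusted p 0.511). Of 17 other ERK outputs, with a median of -0.36, 0 passed the adjusted threshold and 1 was lower at the unadjusted one, the immediate early gene Egr1 (log2 fold change -0.98, SE 0.45, unadjusted p 0.0451, adjusted p 0.725). These counts stand beside 6.83% of all genes at the unadjusted threshold, 3.38% lower, and 0.0228% at the adjusted one. The median over all genes was 0.02. At 6 weeks p.i. none of the genes in the 3 lists passed either threshold, and the medians were 0.09, 0.12 and -0.07.

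Between 2 and 12 weeks p.i. 1 gene of the cascade fell and 1 output rose. The cell cycle gene Ccnd1, encoding cyclin D1, was at 4192 normalized counts at 2 weeks and at 9585 and 12823 at 12 weeks in BRAF V600E tumors, and at 2297 and 1957 and then 7978 and 10716 with PI3Kα H1047R. It rose with a log2 fold change of 1.89 (SE 0.32, limma adjusted p 0.0378). Mras, a RAS family GTPase that forms a phosphatase complex with Shoc2 acting on RAF, was at 550 normalized counts at 2 weeks and 31.4 and 47.9 at 12 weeks in BRAF V600E tumors, and at 586 and 257 and then 7.44 and 72.2 with PI3Kα H1047R. It fell by 3.83 on the log2 scale (SE 0.82, limma adjusted p 0.0461). The calls were lost in 6 of 14 fits that left out 1 library for Ccnd1 and in 10 of 14 for Mras, with adjusted p up to 0.108 and 0.148. Over all 23 alternatives they were lost in 10 and 15, with limma adjusted p up to 0.489 and 0.505, among them the fits without a filter, with the replicate block, without the 12 week BRAF V600E/PI3Kα H1047R pair and within BRAF V600E alone for both genes. In all, 7 of the 17 other ERK outputs were higher at 12 weeks at an unadjusted p under 0.05 and 0 were lower, with a median log2 fold change of 0.92 against 0.02 over all genes. For the cascade these counts were 1 higher and 2 lower of 20 and for the other negative regulators 2 higher and 3 lower of 19, with medians of 0.01 and 0.02. Over all genes the share at this threshold was 17.1%, 8.64% higher. The sums of alveolar type 1 markers given beside Etv5 separated the same weeks, and the lowest values of Ccnd1, 1957, 2297 and 4083 normalized counts, were in the 3 libraries with the highest endothelial and lowest AT2 sums. The part of cell content in these values was not tested.

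In the PGC1α table, the question was whether losing PGC1α altered the same genes in BRAF V600E tumors at 12 weeks p.i. The targeted gene Ppargc1a was at 75.8, 170, 155, 200 and 561 normalized counts in PGC1α Het tumors and at 72.7, 38.0, 51.6 and 124 in PGC1α Null tumors. The groups overlapped. The values are counts over the whole gene, and only a floxed part of it is deleted, so they do not check the deletion itself. Summed counts of the 10 endothelial markers were 358 to 893 in PGC1α Het and 1456 to 2179 in PGC1α Null libraries, and those of 4 club cell markers were 1160 to 3010 and 3888 to 17978, so that both separated the groups. Sums of 8 fibroblast markers were 106 to 440 and 430 to 1766, of 8 macrophage markers 549 to 1624 and 1392 to 2195, and of the 10 AT2 markers 542045 to 678825 and 426305 to 661427. Their part in the values of the 10 genes was not tested.

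None of the 10 genes differed between PGC1α Null and PGC1α Het tumors in limma at the adjusted threshold (adjusted p 0.998 for all 10), where 0% of all 17424 genes passed. None had an unadjusted p under 0.05 either, where 3.83% of all genes did, but with sex as a factor Etv4 did (log2 fold change -0.71, unadjusted p 0.0419, limma adjusted p 0.996). Fold changes of 8 genes were below 0 and of 2 above (6 and 4 with quantile normalization, where Spry4 and Etv5 turned), from a log2 fold change of -0.58 in Etv4 to 0.35 in Dusp5, with a median of -0.17 against 0.01 over all genes. No gene of the 10 separated the groups (1.4% of all genes), and the lowest exact permutation p was 0.206, for Etv4, where the 126 splits allow 0.00794.

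Dusp6 was at 2227, 2852, 5263, 3946 and 2011 normalized counts in PGC1α Het and at 2166, 3851, 3051 and 1486 in PGC1α Null tumors, means of 3260 ± 1349 (SD, n = 5) and 2639 ± 1032 (SD, n = 4). The log2 fold change was -0.30 with a 95% interval of -1.02 to 0.42, so that a difference of 2-fold in the direction of a lower level is within the interval. Etv5 was at 1308, 1617, 2016, 2130 and 1911 normalized counts and at 1587, 2035, 1818 and 1628, means of 1796 ± 333 (SD, n = 5) and 1767 ± 205 (SD, n = 4). Its log2 fold change was -0.01, with a 95% interval of -0.45 to 0.43, the narrowest of the 10. Etv4 was at 147, 201, 134, 173 and 128 normalized counts in PGC1α Het and at 126, 180, 116 and 43.1 in PGC1α Null tumors, 3 of the 4 below every PGC1α Het library. Its interval ran from -1.38 to 0.23.

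The other phosphatases and feedback inhibitors overlapped between the groups as well. Dusp5 was at 118, 144, 256, 190 and 95.6 normalized counts in PGC1α Het and at 199, 223, 171 and 185 in PGC1α Null tumors, so that the latter were even and lay within the range of the former. Dusp4 ranged from 282 to 563 and from 339 to 583, Spry1 from 491 to 967 and from 474 to 669, and Spry2 from 615 to 799 and from 409 to 770 in PGC1α Het and PGC1α Null tumors. Spry4 was the most spread of them, from 160 to 651 and from 200 to 626, and Spred1 ranged from 1853 to 3042 and from 1493 to 2535. Spred2 ranged from 344 to 768 and from 554 to 1128, with a log2 fold change of 0.32 (95% interval -0.29 to 0.92).

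**Figure D5:**
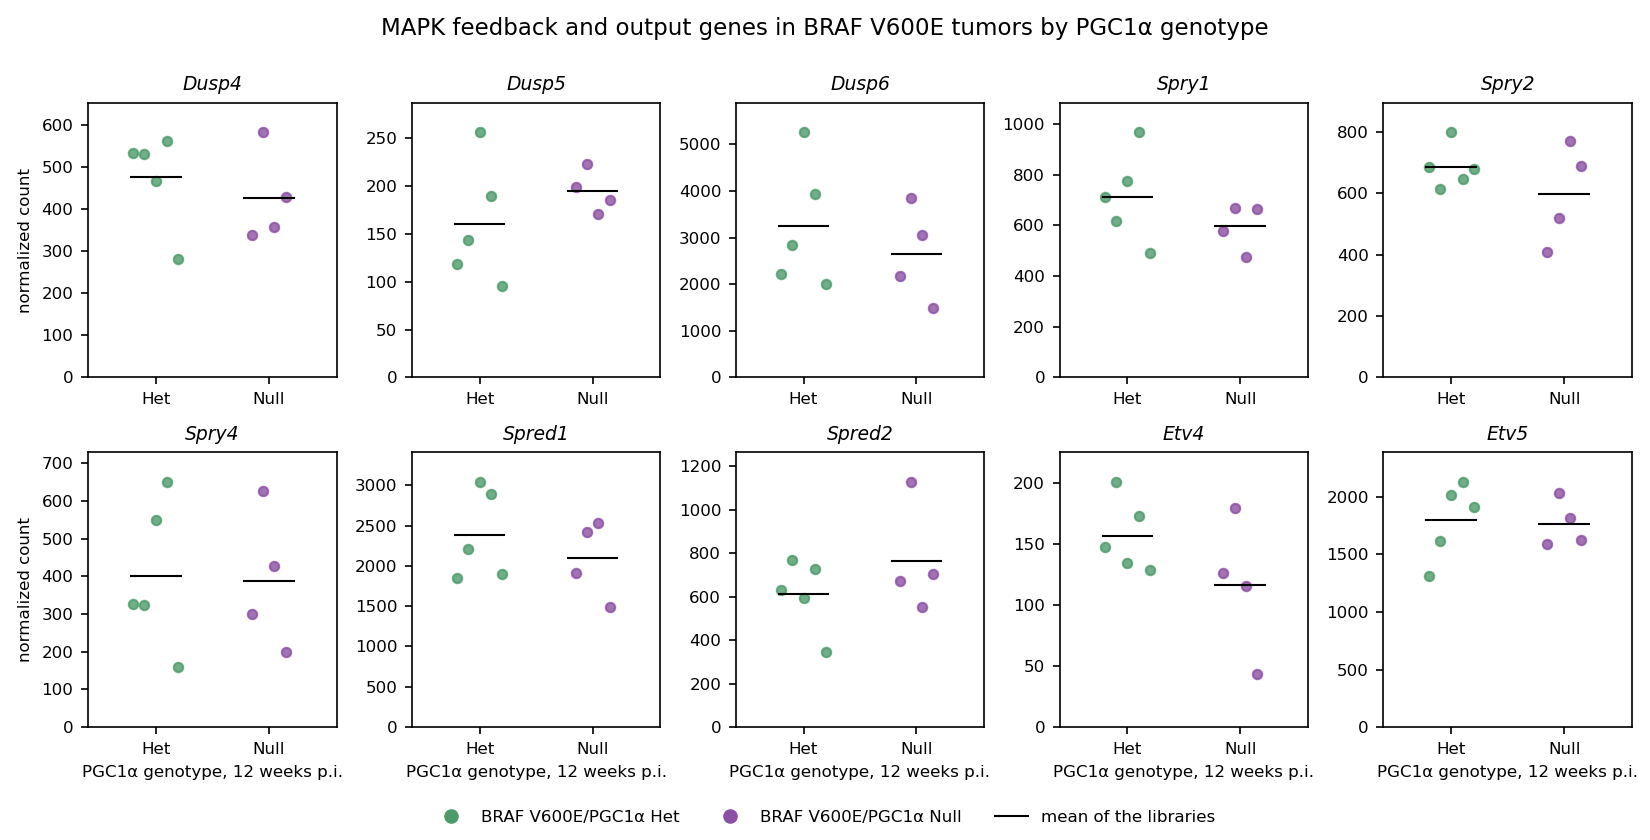
Normalized counts (linear axes from 0) of the 10 genes in the 5 PGC1α Het and 4 PGC1α Null libraries, all with BRAF V600E, at 12 weeks p.i., each point being 1 library and each line the mean. The groups overlap in all 10 genes, and 3 of 4 PGC1α Null points lie below all PGC1α Het points in Etv4.

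Per kilobase, the order in PGC1α Het tumors began with Dusp6 at 1041 ± 431 normalized counts (SD, n = 5), Etv5 at 438 ± 81.1, Spred1 at 351 ± 81.7 and Spry2 at 328 ± 33.4, with Spred1 and Spry2 within their spread of each other. Dusp5 at 65.0 ± 25.8 and Etv4 at 50.5 ± 9.67 were again the lowest. Over the 9 libraries 2 of 45 pairs passed after adjustment, Dusp6 with Spred1 (r = 0.97, exact permutation p = 0.000102, adjusted p 0.00459, rho = 0.93) and Dusp6 with Spry4 (r = 0.88, exact permutation p = 0.00209, adjusted p 0.0471, rho = 0.92). No share over pairs of all genes was computed for the count of 2. Dusp6 with Spry2 had an r of 0.19. The genes most like Dusp6 among 9230 were Ereg (r = 0.99), encoding the EGF receptor ligand epiregulin, Paqr8 (r = 0.99), a membrane progestin receptor, Dstn (r = 0.98), an actin depolymerizing factor, Plekhb2 (r = 0.98) and Mcub (r = 0.98), a subunit of the mitochondrial calcium uniporter. Spred1 stood at rank 13, Spry4 at rank 471 and Spry2 at rank 5931.

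Of the 3 lists of other pathway genes, none held a gene that passed the adjusted threshold between PGC1α Null and PGC1α Het tumors (20, 18 and 17 genes tested, with median log2 fold changes of -0.07, -0.16 and -0.16). The phosphatase gene Dusp2 was the 1 of these 55 genes with an unadjusted p under 0.05, at 2.44 to 14.5 normalized counts in PGC1α Het and 20.6 to 38.2 in PGC1α Null libraries (log2 fold change 1.70, limma adjusted p 0.998), where 3.83% of all genes had such a p. The endothelial and club marker sums separated the same groups. Sums of 7 lymphocyte markers were 114 to 377 in PGC1α Het and 232 to 671 in PGC1α Null libraries. The part of cell content in the low values of Dusp2 was not tested.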

How the data were processed

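RNA of sorted tdTomato+ cells was sequenced after amplification with the Nugen Ovation Ultralow kit. The signal values analyzed are the deposited normalized counts, which the authors estimated with Salmon and normalized with DESeq2 (default settings, versions not given in the sources used here) for all libraries of a table together. The submitters' processing notes name GRCm38. Of the values up to 20, 10.6% to 41.5% and 15.2% to 26.8% per library in the 2 tables were whole multiples of a smallest step (tolerance 0.01), so depth in reads is unknown, count models were not used, and precision rests on the spread between libraries. Libraries were grouped by their labels, and p-values measure the spread between these samples. The authors' 2 tables of fold changes, standard errors and p-values from DESeq2 deposited beside the counts, and those published with the study, were not used.

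Genes whose normalized counts averaged 10 or more were compared on log2(normalized count + 1), which understates the change of low genes, with limma 3.58.1 (trend, two-sided) in R 4.3.3, with Benjamini-Hochberg adjustment over all genes tested. Genotype alone was fitted over all weeks, and genotype plus week between weeks. A mean per genotype and week, over all 14 libraries, was fitted within weeks and for weeks within a genotype. Exact permutation tests and correlations were computed with scipy 1.17.1 in Python 3.11.15. Exon lengths are from GENCODE vM21 and promoters from RefSeq (GRCm38.p6), matched by symbol. Tests were run on simulated data first.

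Alternatives were a pseudocount of 4, a mean of at least 40, no filter, quantile normalization, sex as a factor, week as a factor (for genotype over all weeks), a replicate block and leaving out each library. Leaving out the 2 week libraries or both BRAF V600E/PI3Kα H1047R libraries at 12 weeks p.i. was added after seeing the data. The 10 genes, the lists and the rule for naming other genes (the 5 most like Dusp6, and of each list those that passed or up to 3 with the lowest p) were chosen with earlier results of these data known.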

Additional observations from a re-analysis of the deposited data

Results flagged for a closer look

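Over 30 sets of values, the 10 genes in each group of 4 or 5 libraries, 2 values lay far from the rest of their group by Dixon's test, where chance gives about 1 in 20. Spred2 was at 3731 normalized counts in replicate 1 of BRAF V600E/PI3Kα H1047R at 6 weeks p.i. and at 1338 to 1696 in the other 3, a gap of 0.850 of the range. The same library had Etv4 at 3.99 and an endothelial marker sum of 85973, whose part in the value was not tested. Dusp4 was at 311 normalized counts in replicate 4 of the same group and at 424 to 444 in the others, a gap of 0.855 of the range.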

How the results depend on the processing

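The number of the 10 genes called between 12 and 2 weeks p.i. was 1 and became 0 without a filter (Etv5 adjusted p 0.0543), with the replicate block (0.119), without both BRAF V600E/PI3Kα H1047R libraries at 12 weeks, within BRAF V600E/PI3Kα H1047R alone and within BRAF V600E alone, and was 0 to 2 when 1 library was left out. The cause was not tested, except that the within-genotype comparisons set fewer libraries against each other. Their spread was still estimated over all 14 libraries. Counts of all other comparisons were 0 throughout. For 46 fold changes (all 10 genes over all weeks and for PGC1α, otherwise genes named or with an unadjusted p under 0.05), 859 of 937 values under alternatives kept direction and side of the threshold and 39 turned direction, none with a call in either fit. Over all 10 genes and 8 comparisons 85 of 1650 turned, 17 of 210 at 12 weeks, 14 of 220 at 6 weeks and 3 of 200 at 2 weeks, again none with a call. For PI3Kα H1047R over all weeks these were Spry4 (0.22), Spred2 (0.30) and Etv5 (0.11) with sex as a factor, and Spred2 without both BRAF V600E/PI3Kα H1047R libraries at 12 weeks (0.10) and without the 2 week libraries (0.21). Leaving out 1 library gave -0.30 to 0.015 for Dusp4, -0.20 to 0.090 for Spred2 and -0.38 to 0.37 for Etv4. At 2 weeks Etv4 was -0.40 and Etv5 0.26 with sex as a factor. Leaving out 1 library gave -0.27 to 2.11 for Etv4 at 2 weeks, -0.0038 to 0.52 for Spred2 at 6 weeks, -0.56 to 1.58 for Dusp5 at 12 weeks and -0.29 to 0.26 for Spred2 between 2 and 12 weeks, which was 0.013 with quantile normalization and 0.14 within BRAF V600E/PI3Kα H1047R alone. Spry2 between 2 and 6 weeks was -0.053 within BRAF V600E alone. For PGC1α Null, Spry4 was 0.016 and Etv5 0.072 with quantile normalization, Etv5 was 0.0050 with sex as a factor and 0.018 with the replicate block, and leaving out 1 library gave -0.31 to 0.26 for Spry4 and -0.12 to 0.057 for Etv5. Deviations of same-numbered libraries had r from -0.28 to 0.26 over 21 pairs in the first table and from -0.47 to 0.21 over 4 in the second. Those of different-numbered libraries had r from -0.26 to 0.23 over 45 pairs and from -0.36 to 0.55 over 16. In groups of 2 the deviations mirror each other, so these ranges cannot decide whether the replicate block is a pairing. The block ended the calls of Etv5, Ccnd1 and Mras and changed no other call. Depth in reads is unknown.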
